A study of Mus musculus with 9 samples.

Results

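The long noncoding RNAs *Malat1* and *Neat1* were described together with 4 genes for proteins of the paraspeckle, *Sfpq*, *Nono*, *Pspc1* and *Rbm14*, in tumor cells of the SB28 mouse glioma and in libraries labelled astrocytes. The genes were chosen by symbol and make up 6 of the 24421 rows of the count table. They were picked because *Malat1* and *Neat1* were higher after BAL101553 than in controls, so for all 6 genes the values of that contrast chose the set and are given as a description. Calls in that contrast restate the choice and are no test of these genes.

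SB28 is a mouse glioma cell line marked with GFP. BAL101553 (lisavanbulin) is a prodrug taken by mouth whose active form binds tubulin and activates the spindle assembly checkpoint. The table held the number of reads counted per gene in 9 libraries from brains of C57BL/6 mice, 3 labelled control, 3 labelled BAL101553 and 3 labelled astrocytes, which also carry the BAL101553 treatment label. The Methods describe SB28 cells grown in the brain and sorted as CD45-CD11b-GFP+, with treated mice sacrificed later than vehicle controls so that tumors were of like volume; drug and time of growth therefore cannot be told apart. The labels call the tumor samples whole tissue, the study states 2 ex vivo samples a group where the table holds 3, and the study's text does not name the astrocyte libraries, so that how those cells were isolated is not given in the sources used here. The study also names another data series for its sequencing than the one read here, so whether its Methods cover these libraries is uncertain.

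*Malat1* RNA stays in the nucleus and gathers at nuclear speckles, domains rich in splicing factors, while *Neat1* is the scaffold RNA of paraspeckles, nuclear bodies that hold RNA-binding proteins and some edited RNAs. *Sfpq*, *Nono* and *Pspc1* encode the related proteins of the DBHS family, which pair with one another and coat *Neat1* RNA. *Rbm14* encodes a protein with a prion-like region that is also needed for paraspeckle assembly. Both RNAs end in an unusual way: RNase P cuts them before a tRNA-like fold, and a triple helix of U-rich stretches and an A-rich tract protects the end, in place of a poly(A) tail; a short form of *Neat1* is polyadenylated and does not build paraspeckles.

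Positions are from GENCODE vM21 on GRCm38. *Malat1* (ENSMUSG00000092341.3) is on chr19:5795690-5802672 on the minus strand, with a longest transcript of 1 exon of 6983 bases. *Neat1* (ENSMUSG00000092274.3) is on chr19:5824708-5845478 on the same strand, 22.0 kb away, and its transcripts span 20771 bases in the long form and 3004 bases in the short form. Counts per gene cannot separate these forms. The protein genes are at chr4:127021324-127037013 on the plus strand (*Sfpq*), chrX:101429318-101448591 on the plus strand (*Nono*), chr14:56720710-56778316 on the minus strand (*Pspc1*) and chr19:4800569-4811634 on the minus strand (*Rbm14*). *Rbm14* overlaps Gm21992, a gene on the same strand with a row of its own, so its counts are uncertain. The Gm37376 gene lies antisense to *Malat1*, and whether strand was used in counting is not given.

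The ends of the 2 RNAs are shown because they hold what the genes share beyond their position. The first line is chr19:5795982-5796075, which stops 292 bases before the annotated end of the *Malat1* transcript, and the second is chr19:5824708-5824807, the last 100 bases of long *Neat1*, both on the minus strand of GRCm38 and 5′ to 3′. Capitals mark the 3 stretches of at least 10 bases that the 2 RNAs share in the same order, which are the U-rich stretches (T in the genome) and the A-rich tract of the triple helix.
Malat1: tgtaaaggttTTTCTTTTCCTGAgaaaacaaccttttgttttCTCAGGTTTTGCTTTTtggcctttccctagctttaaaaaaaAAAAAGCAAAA
Neat1: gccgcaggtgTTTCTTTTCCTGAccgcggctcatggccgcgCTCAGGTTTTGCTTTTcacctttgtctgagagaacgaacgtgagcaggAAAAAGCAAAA
The stretches are 13, 16 and 11 bases long. In the last 400 bases of the longest transcript, 3, 2 and 73 of 55341 annotated genes hold them, and 2 genes, *Malat1* and *Neat1*, hold all of them.

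Promoter windows came from RefSeq on GRCm38.p6 for 5 of the 6 genes, all but *Neat1*. That of *Malat1*, the gene of the set with the largest difference between BAL101553 and control, is chr19:5802623-5802922 on the minus strand, 300 bases. Capitals mark its 3 matches to TGACG on either strand, the core letters of sites for the CREB and ATF family.
Malat1 promoter: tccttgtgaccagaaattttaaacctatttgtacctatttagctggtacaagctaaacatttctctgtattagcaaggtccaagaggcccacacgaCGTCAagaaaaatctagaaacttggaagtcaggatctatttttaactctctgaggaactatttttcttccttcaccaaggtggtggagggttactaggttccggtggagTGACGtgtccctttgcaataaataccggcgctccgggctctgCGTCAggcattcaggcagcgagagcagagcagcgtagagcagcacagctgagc
Of 32851 such windows, 20.8% hold at least 1 match and 1.03% hold as many as 3. The same search on both strands for CCAAT, a promoter motif read by NF-Y, for the GC-box letters GGGCGG and for the TATA-box letters TATAAA found none in the *Malat1* window. The windows of *Sfpq* and *Rbm14* hold 4 CCAAT matches each, as many as 1.06% of windows, that of *Nono* holds 2 and that of *Pspc1* holds 1, and 37.4% of windows hold at least 1. These matches describe the letters and are not sites shown to be bound.

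Total counts lay between 24540452 and 28761388 in the control libraries, between 26667789 and 34013875 in the BAL101553 libraries and between 22919523 and 29230743 in the libraries labelled astrocytes, and replicates differed by more than sampling noise (chi-square per degree of freedom from 12.6 to 53.8). Levels are CPM, counts divided by library size after TMM scaling over all 9 libraries. The labels were read against marker genes. Summed over 8 astrocyte genes, the libraries labelled astrocytes held 12000 to 14700 CPM, but they also held 10300 to 12700 CPM of 6 oligodendrocyte genes and 493 to 1070 CPM of 10 microglia and macrophage genes, so they are called by their label and not as pure astrocytes. In these bulk samples, fewer cells of a type and less RNA per cell cannot be told apart.

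*Malat1* had 51, 41.4 and 54.1 CPM in control libraries 1 to 3, 195, 218 and 296 CPM in BAL101553 libraries 1 to 3, and 674, 617 and 595 CPM in the libraries labelled astrocytes. The groups did not overlap, and the BAL101553 libraries stood between the other groups. Group means were 48.8 ± 6.60, 236 ± 52.9 and 629 ± 40.6 CPM (SD, n = 3 each). In the contrast it was picked on, *Malat1* was 4.85-fold higher after BAL101553, a log2 fold change of 2.28 (standard error, SE, 0.18), and 0.966% of the 12633 genes tested had a larger one.

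*Neat1* had 24.8, 21.0 and 31.4 CPM in control libraries 1 to 3, 65.5, 54.4 and 90.0 CPM in BAL101553 libraries 1 to 3, and 677, 790 and 588 CPM in the libraries labelled astrocytes. Again no groups overlapped, and BAL101553 library 3 was the highest treated library for both RNAs. The means were 25.7 ± 5.23, 70.0 ± 18.2 and 685 ± 101 CPM (SD, n = 3 each). *Neat1* was 2.73-fold higher after BAL101553 in the picking contrast, a log2 fold change of 1.45 (SE 0.21), and 3.12% of genes tested had a larger one.

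**Figure D1:**
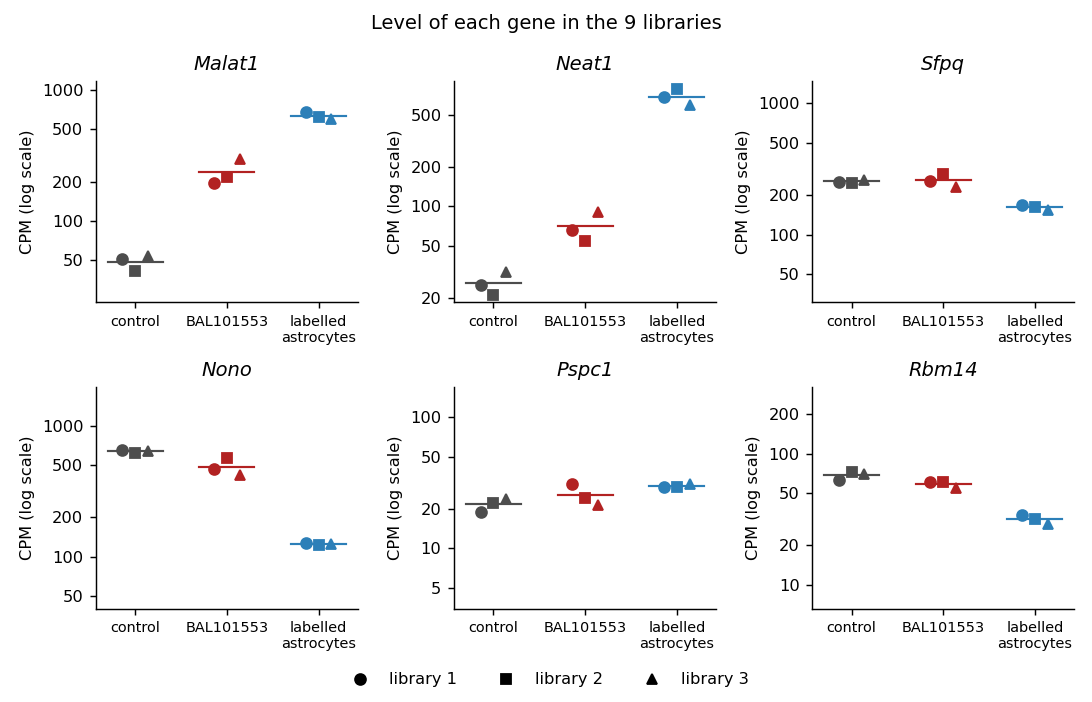
CPM (log scale, each panel spanning the same fold range) of the 6 genes in each of the 9 libraries, by group; symbols give the library number and lines the group means. *Malat1* and *Neat1* are lowest in control and highest in the libraries labelled astrocytes, *Nono* and *Rbm14* run the other way, and *Sfpq* and *Pspc1* overlap between control and BAL101553.

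Between control and BAL101553 the proteins' genes moved less than *Malat1* and *Neat1*, which were picked for their rise there. *Sfpq*, whose product is needed for paraspeckles to form, had 253, 247 and 262 CPM in controls, 255, 290 and 232 CPM after BAL101553 and 168, 161 and 155 CPM in the libraries labelled astrocytes. The control and BAL101553 libraries overlapped, and the log2 fold change was 0.03 (SE 0.10, 95% interval -0.26 to 0.32). It was above 0 in 13 of 15 alternatives, at -0.06 without BAL101553 library 2 and at 0.00 without control library 2.

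*Nono*, whose product pairs with that of *Sfpq*, had 646, 623 and 638 CPM in controls, 464, 566 and 422 CPM after BAL101553 and 126, 122 and 124 CPM in the libraries labelled astrocytes. No groups overlapped, and among the treated libraries it was highest in library 2 and lowest in library 3, the reverse of *Neat1*. Its log2 fold change after BAL101553 was -0.39 (SE 0.12). It ran from -0.52 without BAL101553 library 2 to -0.29 without BAL101553 library 3.

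*Pspc1*, the third DBHS gene, which paraspeckles can form without, had 19, 22.4 and 23.7 CPM in controls, 30.9, 24.3 and 21.3 CPM after BAL101553 and 29.4, 29.4 and 31.1 CPM in the libraries labelled astrocytes. Treated and control libraries overlapped, with a log2 fold change of 0.24 (SE 0.16, 95% interval -0.22 to 0.69), and this was 0.08 without BAL101553 library 1. *Rbm14* had 63.4, 72.9 and 69.6 CPM in controls, 60.4, 60.7 and 54.7 CPM after BAL101553 and 34.3, 31.8 and 29.0 CPM in the libraries labelled astrocytes. Its treated libraries all lay below its controls, with a log2 fold change of -0.22 (SE 0.094).

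The choice fixes that *Malat1* and *Neat1* lie past the threshold used for all genes, 0.05 for the adjusted p in the quasi-likelihood fit of edgeR; the 4 protein genes lie short of it, *Nono* in 12 of 15 alternatives and the others in all 15. This is 2 of 6 higher and 0 lower, beside 14.7% of all genes tested in either direction, 8.64% higher and 6.09% lower. For 4 of 6 genes, *Malat1*, *Neat1*, *Nono* and *Rbm14*, treated and control libraries did not overlap, beside 39.8% of all genes tested. Nothing is read from these shares. Over the alternatives the log2 fold changes of *Malat1* and *Neat1* ran from 2.09 to 2.48 and from 1.23 to 1.66, and neither was past the threshold in the fit of control libraries 1 and 2 against BAL101553 libraries 2 and 3, in which 1 of 12713 genes was.

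**Figure D2:**
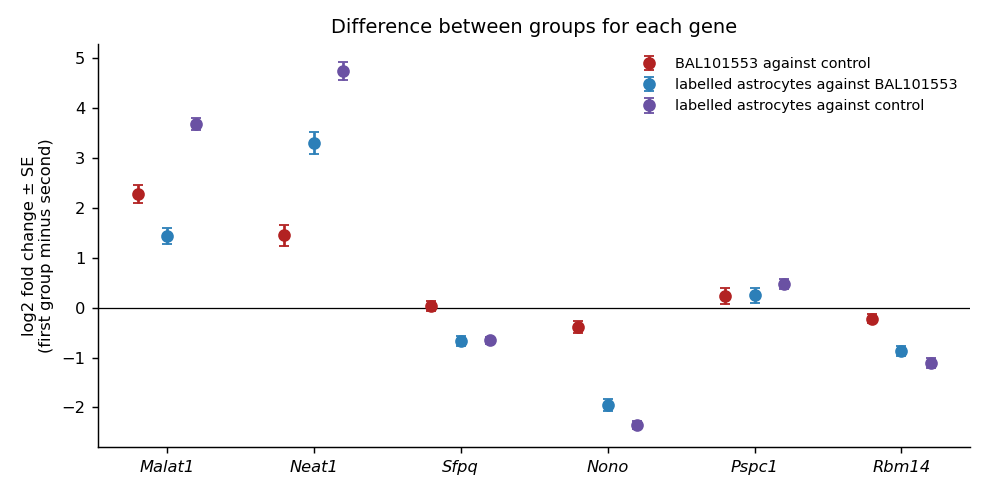
Log2 fold change with its SE for the 6 genes in the 3 comparisons of 2 groups, first group minus second. *Malat1* and *Neat1* are above 0 in each comparison, *Nono* and *Rbm14* below 0 in each, and *Pspc1* lies between 0.24 and 0.47. The comparisons share libraries and are not independent.

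The libraries labelled astrocytes differ from the BAL101553 libraries in the cell type label and share the treatment label. This comparison did not pick the genes, although the BAL101553 libraries entered the one that did. Every adjusted p given here comes from edgeR's quasi-likelihood fit across all tested genes, corrected by Benjamini-Hochberg, and differences are in log2. *Malat1* was higher in the libraries labelled astrocytes by 1.43 (SE 0.16, adjusted p = 6.14e-05), or 2.69-fold, and *Neat1* by 3.30 (SE 0.22, adjusted p = 2.36e-06), or 9.87-fold. The DBHS genes split: *Nono* was lower by -1.95 (SE 0.12, adjusted p = 1.35e-06) and *Sfpq* by -0.67 (SE 0.097, adjusted p = 0.000267), while *Pspc1* differed by 0.25 (SE 0.15, adjusted p = 0.139, 95% interval -0.15 to 0.65). *Rbm14* was lower by -0.87 (SE 0.095, adjusted p = 4.68e-05).

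These 2 higher and 3 lower genes of 6 stand beside 85.1% of all genes tested in either direction, 46.3% higher and 38.9% lower, so the share past the threshold is near that of genes at large. The call for *Pspc1* depended on the processing. It was past the threshold under scaling by total counts (0.46, adjusted p = 0.0156), with at least 10 counts required in every library (0.47, adjusted p = 0.0144) and without BAL101553 library 1 (0.39, adjusted p = 0.0125), and over the 14 alternatives its adjusted p lay between 0.0125 and 0.356. The other 5 genes kept direction and call in all 14.

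Against control, the libraries labelled astrocytes differed in both labels. The control libraries also entered the contrast that picked the genes, so the differences and p-values of *Malat1* and *Neat1* here are not free of that choice. *Malat1* was higher by 3.69 (SE 0.12, adjusted p = 2.11e-08) and *Neat1* by 4.74 (SE 0.18, adjusted p = 4.75e-08). *Pspc1* was higher as well, by 0.47 (SE 0.10, adjusted p = 0.00214). *Nono* was lower by -2.35 (SE 0.074, adjusted p = 1.52e-08), *Rbm14* by -1.11 (SE 0.092, adjusted p = 4.62e-06) and *Sfpq* by -0.65 (SE 0.070, adjusted p = 2.74e-05). All 6 genes passed, 3 in each direction, beside 88.3% of all genes tested, 48.8% higher and 39.5% lower. The median gene was 0.25 higher on this scale, and 0.56 higher under scaling by total counts, with 0.18 and 0.39 against BAL101553; no member changed direction under either scaling.

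Levels of different genes were compared per kilobase of the union of their exons, as mean CPM per kb. In controls the order was *Nono* at 145, *Sfpq* at 53.5, *Rbm14* at 17.6, *Malat1* at 6.99, *Pspc1* at 3.78 and *Neat1* at 1.24 CPM per kb, and no neighbours overlapped between libraries. Thus 3 of the 4 protein genes led, and *Malat1* stood above *Pspc1*. After BAL101553, *Malat1* at 33.8 CPM per kb stood above *Rbm14* at 15.0, behind *Nono* at 111 and *Sfpq* at 54.6, and the ranges of *Pspc1* (3.71 to 5.39) and *Neat1* (2.62 to 4.33) overlapped. In the libraries labelled astrocytes, *Malat1* led at 90.0 CPM per kb. *Sfpq* at 34.0, *Neat1* at 33.0 and *Nono* at 28.3 followed, each overlapping its neighbour, and *Rbm14* at 8.11 and *Pspc1* at 5.23 were lowest. The place of *Neat1* depends on which form the reads came from: divided by the length of the short form alone, its means would be 8.57, 23.3 and 228 CPM per kb in control, BAL101553 and the libraries labelled astrocytes.

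Ratios of counts within a library do not depend on how libraries are scaled. For each *Neat1* count there were 2.05, 1.97 and 1.72 *Malat1* counts in controls, 2.97, 4.01 and 3.29 after BAL101553, and 0.996, 0.782 and 1.01 in the libraries labelled astrocytes. Thus *Malat1* reads outnumbered those of *Neat1* most after BAL101553 and were about level with them in the libraries labelled astrocytes, with no overlap between groups. For each *Sfpq* count there were 2.56, 2.53 and 2.43 *Nono* counts in controls, 1.82, 1.95 and 1.82 after BAL101553, and 0.752, 0.756 and 0.797 in the libraries labelled astrocytes. This ratio of the DBHS partners varied little within groups, with SDs of 0.0635, 0.0747 and 0.0251 (n = 3 each). *Pspc1* counts per 100 *Nono* counts were 3.42 ± 0.418, 5.33 ± 1.21 and 24.2 ± 0.929 (SD, n = 3 each).

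The scaffold RNA was also set against its protein genes. *Neat1* counts per 100 counts of *Sfpq*, *Nono* and *Pspc1* together were 2.70, 2.36 and 3.39 in controls, 8.74, 6.18 and 13.3 after BAL101553 and 209, 253 and 190 in the libraries labelled astrocytes. In each library labelled astrocytes the reads of *Neat1* thus outnumbered those of the DBHS genes together, which they did in no tumor library. These reads are not corrected for length, and the exons of *Neat1* span 20771 bases against 4743 (*Sfpq*), 4375 (*Nono*) and 5734 (*Pspc1*). Per kb, its mean of 33.0 CPM there did not exceed *Sfpq* (34.0) and *Nono* (28.3) together. Divided by the short form alone it would be 228. The corresponding means for *Malat1* were 5.35 ± 0.628, 31.5 ± 10.6 and 199 ± 8.23 (SD, n = 3 each). No test was run on these ratios, since those between control and BAL101553 rest on the contrast that picked the genes.

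**Figure D3:**
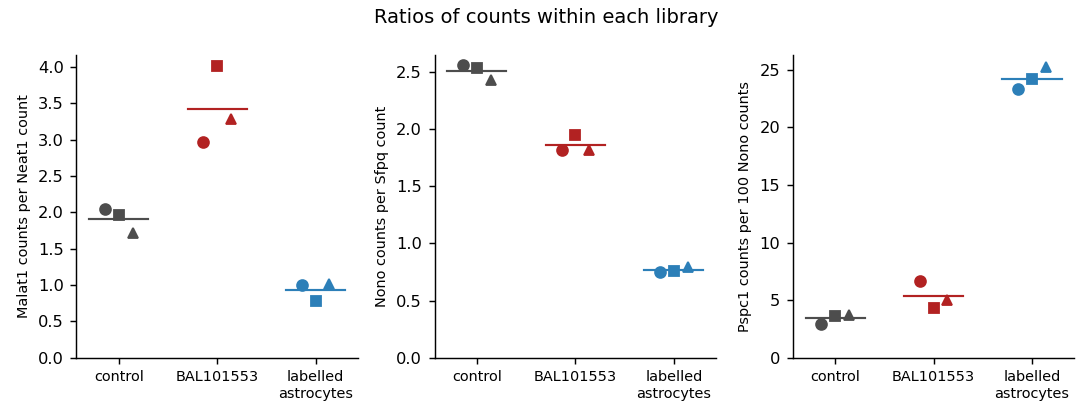
Ratios of raw counts within each of the 9 libraries, from left to right *Malat1* per *Neat1* count, *Nono* per *Sfpq* count and *Pspc1* per 100 *Nono* counts, with symbols for library 1 (circle), 2 (square) and 3 (triangle) and lines for group means. *Malat1* per *Neat1* is highest after BAL101553 (2.97 to 4.01), *Nono* per *Sfpq* falls from 2.50 to 0.768 from left to right, and *Pspc1* per *Nono* is highest in the libraries labelled astrocytes.

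Because both RNAs were far higher in the libraries labelled astrocytes, markers of those cells were read in the tumor libraries. The BAL101553 mean of *Malat1* was 37.6% of its mean in the libraries labelled astrocytes, and that of *Neat1* was 10.2%. The 10 microglia and macrophage genes summed to 3.37 to 5.11 CPM in controls and 2.24 to 3.35 CPM after BAL101553. These sums were at most 0.656% in controls and 0.430% after BAL101553 of the mean sum in the libraries labelled astrocytes. None of the 10 genes was at 0 in all libraries of a group. Of the 10, 4 were tested after BAL101553, 0 were higher and 1, *P2ry12*, was lower (log2 fold change -1.88, SE 0.44, adjusted p = 0.0313). Its means were 1.74 CPM in controls and 0.463 CPM after BAL101553, and it kept the call in 1 of the 6 fits without 1 library. The 6 oligodendrocyte genes summed to 18.7 to 20.6 and 15.3 to 18.9 CPM, at most 0.161% after BAL101553. The 8 astrocyte genes summed to 940 to 972 and 681 to 797 CPM, mostly *Gja1*, a gap junction gene, at 911 and 702 CPM (log2 fold change -0.37, adjusted p = 0.0363). Of the 8, 5 were tested after BAL101553, 1 was higher and 1, *Gja1*, was lower. The higher one was the glutamate transporter *Slc1a3*, at 0.583, 0.606 and 0.716 CPM in controls and 1.3, 2.96 and 1.41 CPM after BAL101553 (log2 fold change 1.57, SE 0.40, adjusted p = 0.0403). Both genes kept the call in 1 of the 6 fits without 1 library, *Slc1a3* in that without BAL101553 library 1 and *Gja1* in that without BAL101553 library 2. *Slc1a3* reached at most 0.0991% of its mean in the libraries labelled astrocytes in any BAL101553 library, and *Slc1a2*, a related transporter, at most 0.0311%. Other astrocyte genes reached far more: *Gja1* at most 49% and *Aldh1l1* at most 13.2% in any BAL101553 library. In controls these 2 genes reached 61% and 18.2%. The sum of the 8 genes was at most 5.97% after BAL101553.

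Summed markers of dividing cells lay between 654 and 683 CPM in controls, between 606 and 770 CPM after BAL101553 and between 27.2 and 31.4 CPM in the libraries labelled astrocytes. The 6 endothelial genes summed to 740 to 868, 516 to 647 and 181 to 210 CPM in the same order. Most of the tumor sums came from *Cdh5*, with means of 764, 530 and 20.1 CPM. Against control, 5 of the 6 were higher in the libraries labelled astrocytes and 1, *Cdh5*, was lower, so the sums do not give the order of most of these genes. The 7 neuronal genes summed to between 13.8 and 34.5 CPM in all libraries. The share of counts on ribosomal protein genes was 4.3% to 5% in controls, 3.51% to 4.14% after BAL101553 and 1% to 1.1% in the libraries labelled astrocytes, the order of *Nono* and the reverse of *Malat1*. Among the libraries labelled astrocytes, library 2 had both the most *Neat1* (790 CPM) and the most microglia and macrophage counts (1070 CPM, against 493 and 774 CPM in libraries 1 and 3). Libraries 1 and 3 stood in the opposite order for *Neat1*, at 677 and 588 CPM. The part of these differences in the levels of *Malat1* and *Neat1* was not tested.

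Other genes of the same nuclear bodies were read from lists. Of 5 other genes whose products are needed for or enriched in paraspeckles, among them *Hnrnpk*, *Dazap1*, *Hnrnph3* and *Smarca4*, 1 was higher and 0 lower after BAL101553, with a median log2 fold change of -0.06 beside 0.016 over all genes. The gene was *Hnrnph3*, an RNA-binding protein, at 7.27, 10.8 and 11.1 CPM in controls and 14.9, 17 and 18.4 CPM after BAL101553 (log2 fold change 0.79, SE 0.19, adjusted p = 0.0313). Its call held without BAL101553 library 1 and was lost without any 1 of the other 5 libraries. *Hnrnpk*, needed for long *Neat1* to be made, had 850 ± 7.43 and 721 ± 73.5 CPM (SD, n = 3 each) in these groups (adjusted p = 0.154).

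Of 28 further paraspeckle proteins, 27 were tested, 3 were higher and 1 lower after BAL101553, and the median was 0.15. *Hnrnph1*, a splicing regulator, rose from 134 ± 10.3 to 218 ± 9.74 CPM (SD, n = 3 each; log2 fold change 0.71, adjusted p = 0.00751) and kept its call without any 1 library. *Hnrnpa1* (0.74, adjusted p = 0.0267) and *Taf15* (0.50, adjusted p = 0.0242), both RNA-binding proteins, also rose, but kept the call in 1 and 2 of the 6 fits without 1 library. *Hnrnpa1* has near-identical copies in the genome that can share its reads. *Nudt21*, a subunit of the cleavage factor whose binding favors the short form of *Neat1*, was lower, at 78.0, 91.4 and 85.0 CPM in controls and 62.2, 69.5 and 60.9 CPM after BAL101553 (-0.39, adjusted p = 0.0363), with the call kept in 1 of these 6 fits, that without BAL101553 library 2. Without BAL101553 library 3, or without any 1 control library, 1 gene of the list was higher in place of 3.

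Nuclear speckles are where *Malat1* gathers, and 4 of 14 speckle genes were higher after BAL101553 and 0 lower, with a median of 0.00. *Pnisr*, which encodes an arginine and serine rich protein, had 17.6, 21.6 and 23.7 CPM in controls and 42.8, 45.1 and 48.9 CPM after BAL101553 (log2 fold change 1.13, SE 0.13, adjusted p = 0.00728). *Acin1* (0.61, adjusted p = 0.00742), *Srrm2*, a scaffold of the speckle (0.55, adjusted p = 0.0123), and *Pnn* (0.49, adjusted p = 0.0146) rose as well. *Pnisr* and *Acin1* kept the call without any 1 library. *Srrm2* lost it without control library 3, and *Pnn* without control library 1 or 3, so that 2 genes of the list were higher without control library 3. *Son*, the other scaffold, had 353 ± 61.6 and 405 ± 45.6 CPM (SD, n = 3 each; adjusted p = 0.352).

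**Figure D4:**
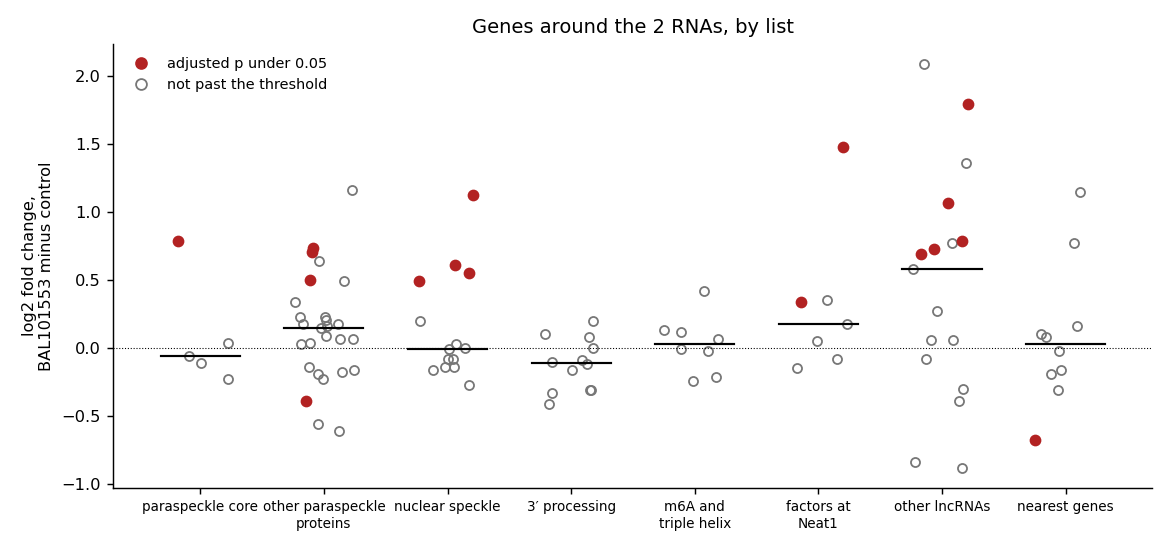
Log2 fold change after BAL101553 for the genes of each list around *Malat1* and *Neat1*; filled points have an adjusted p under 0.05, open points do not, lines are list medians, and sideways spread within a list has no meaning. Medians lie between -0.11 and 0.58, and the list of other long noncoding RNAs (lncRNAs) has the highest. All lists but the nearest genes were chosen with earlier results of these data known.

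Genes that act on the ends or the modification of the RNAs did not pass. Of 13 genes for RNase P, RNase Z and CCA addition, which cut and finish the tRNA-like product, 12 were tested and 0 passed in either direction (median -0.11), and 1 was lower without BAL101553 library 2. Of 8 genes for N6-methyladenosine and for *Mettl16*, a protein that binds the *Malat1* triple helix, 0 passed (median 0.03). *Mettl16* itself had 33.6 ± 3.01 and 36.7 ± 2.46 CPM in control and BAL101553 libraries (SD, n = 3 each; log2 fold change 0.13, adjusted p = 0.410).

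Of 7 genes for transcription factors reported at *Neat1*, 2 were higher after BAL101553 and 0 lower (median 0.18). *Trp53*, which encodes p53, had 3.41, 3.07 and 3.28 CPM in controls and 8.28, 9.59 and 9.22 CPM after BAL101553 (log2 fold change 1.48, SE 0.17, adjusted p = 0.00728), and kept its call without any 1 library. *Atf2* differed by 0.34 (adjusted p = 0.0461) and lost the call without any 1 of the 6 libraries. The hypoxia factors *Hif1a*, at 417 ± 56.7 and 392 ± 21.2 CPM (SD, n = 3 each; adjusted p = 0.648), and *Epas1*, at 39.6 ± 18.2 and 50.5 ± 17.7 CPM (SD, n = 3 each; adjusted p = 0.497), did not pass.

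Of 20 other long noncoding RNAs, 17 were tested, 5 were higher after BAL101553 and 0 lower, and the median of 0.58 was the highest of the lists. *Firre*, an X-linked nuclear RNA, had 3.59, 2.58 and 4.71 CPM in controls and 12.5, 13.6 and 11.7 CPM after BAL101553 (log2 fold change 1.80, SE 0.23, adjusted p = 0.00738). *Airn*, an imprinted antisense RNA (1.07, adjusted p = 0.0136), and the small nucleolar RNA hosts *Gas5* (0.79, adjusted p = 0.00934) and *Snhg12* (0.73, adjusted p = 0.0201) were also higher. *Firre* and *Gas5* kept the call without any 1 library, *Airn* lost it without control library 1 or 3, and *Snhg12* kept it only without BAL101553 library 2. Without control library 1, 2 genes of the list were higher, and 3 without control library 2 or 3 or without BAL101553 library 3. *Tug1*, a widely expressed RNA, had 124 ± 8.02 and 129 ± 8.57 CPM (SD, n = 3 each; adjusted p = 0.655). These lists were chosen with earlier results of these data known, so their counts and medians are a description and no test. Their shares stand beside 8.64% of all genes higher and 6.09% lower.

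The 5 annotated genes with a row on each side of the *Malat1* and *Neat1* pair were read next. After BAL101553, 0 of 10 were higher and 1 lower, with a median of 0.03. *Frmd8*, the nearest on the *Neat1* side, differed by -0.19 in log2 (adjusted p = 0.361). *Fam89b* was the gene past the threshold (-0.68, adjusted p = 0.0313), and it lost the call without BAL101553 library 3 or any 1 control library. The 10 neighbours lie up to 122.1 kb from the start of *Malat1*, and 0 of 10 higher is near the 8.64% of all genes that were higher.

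**Figure D5:**
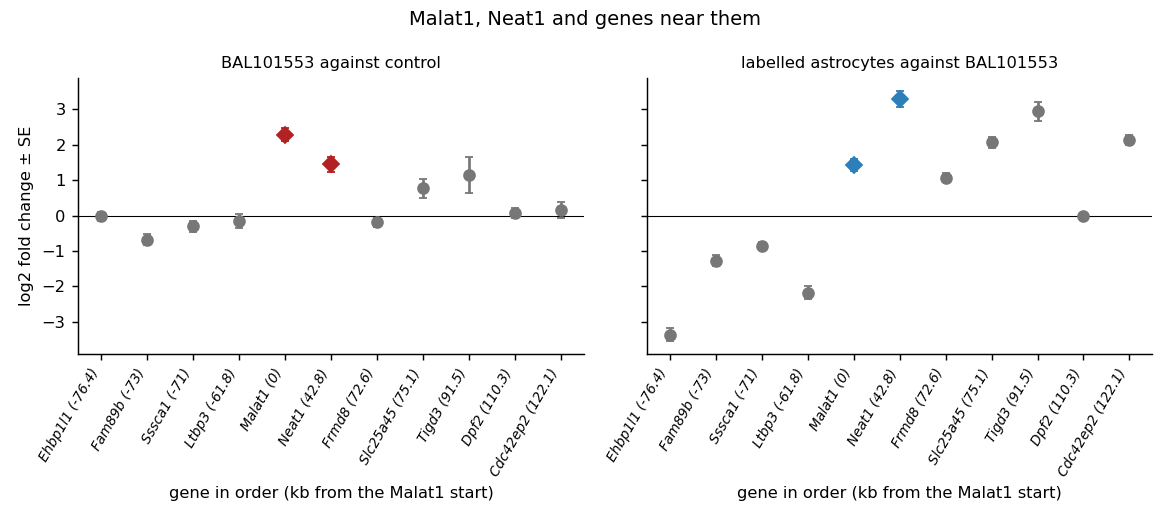
Log2 fold change with its SE for *Malat1* and *Neat1* (diamonds) and 9 of the 10 neighbouring genes (circles), in order along the chromosome with the distance of each gene start from that of *Malat1* in kb. On the left, BAL101553 against control, the diamonds lie at 2.28 and 1.45 and *Tigd3* at 1.15 is the nearest circle; on the right, libraries labelled astrocytes against BAL101553, the circles spread from -3.37 to 2.95.

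Between the libraries labelled astrocytes and BAL101553, the same lists had more genes lower than higher, save the noncoding RNAs. Counts were 1 higher and 3 lower of 5 for the first paraspeckle list, 7 and 18 of 27 for the further paraspeckle proteins, 2 and 10 of 14 for speckle genes (1 higher without library 1 or 2 of those labelled astrocytes or without BAL101553 library 3), 1 and 6 of 12 for RNase P, RNase Z and CCA addition, 1 and 4 of 8 for N6-methyladenosine, 2 and 4 of 7 for transcription factors, 8 and 8 of 20 for other long noncoding RNAs and 4 and 5 of 10 for neighbours. Of all genes tested, 46.3% were higher and 38.9% lower, and the counts for noncoding RNAs and for neighbours lay near these shares. List medians were from -0.79 to -0.14, beside 0.18 over all genes. Under scaling by total counts, and with at least 10 counts required in every library, RNase P, RNase Z and CCA addition had 5 higher and 5 lower. With that count filter 3 genes for N6-methyladenosine and 3 other long noncoding RNAs were higher, in place of 1 and 8. *Hnrnph3* (1.71, adjusted p = 1.8e-06) and *Pnisr* (2.11, adjusted p = 1.95e-07), which were higher after BAL101553 than in control, were higher again. *Trp53* (1.79, adjusted p = 1.68e-06) and *Firre* (3.99, adjusted p = 1.32e-08) also followed the order of *Malat1* and *Neat1*. *Dazap1* (-1.32, adjusted p = 1.06e-06) and *Smarca4* (-1.30, adjusted p = 1.16e-06) were lower, as *Nono* was, and so was *Pop1*, the large subunit of RNase P (-3.40, adjusted p = 7.79e-07). *Cirbp* (2.89, adjusted p = 7.97e-07) and *Rbm3* (-2.44, adjusted p = 0.000163), both cold-induced RNA-binding proteins, went opposite ways. Among neighbours, *Ehbp1l1* was lower by -3.37 and *Tigd3* higher by 2.95, so the 10 genes did not all go the way of *Malat1* and *Neat1*.

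The counts against control were alike in kind: 1 higher and 3 lower, 8 and 14, 5 and 8, 1 and 6, 2 and 4, 2 and 4, 9 and 10, and 4 and 5, in the order of lists just given, where the 1 higher gene of RNase P, RNase Z and CCA addition was not called without any 1 library save control library 1. These counts stand beside 48.8% of all genes tested higher and 39.5% lower. Scaling by total counts gave 10 higher and 6 lower for other long noncoding RNAs, and the filter at 10 counts gave 6 and 5. *Pnisr* was higher by 3.23 (adjusted p = 2.61e-08) and *Firre* by 5.78 (adjusted p = 1.44e-08). *Miat*, a noncoding RNA of speckle-like nuclear domains, had no read in any control library and 35.1 ± 0.789 CPM (SD, n = 3) in the libraries labelled astrocytes. Both comparisons share the libraries labelled astrocytes.

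Genes most like *Malat1* and *Neat1* in pattern were ranked by Pearson's r of log2 CPM over the 6 control and BAL101553 libraries, among 8888 genes with a mean of at least 10 CPM. These libraries form the groups the pair was picked on, so r orders genes by likeness and is no test. For *Malat1* the first 5 included *Gtpbp2* (r = 0.995), *Nfx1* (0.994), *Mtx3* (0.994) and *Nudt5* (0.993). *Nudt5*, a nucleotide hydrolase, ran from 26.9 to 28.7 CPM in controls and from 34.7 to 37.5 CPM after BAL101553, so a like pattern went with a much smaller log2 fold change of 0.36. For *Neat1* the first 5 were *Trim3* (0.990), *Ttf1* (0.989), *Col27a1* (0.989), *Klc4* (0.988) and *Mbd2* (0.987), of which *Col27a1*, a fibrillar collagen, had the largest log2 fold change, 1.13. Between *Malat1* and *Neat1* r was 0.975. With *Malat1* and *Neat1*, r was -0.867 and -0.919 for *Nono*, -0.894 and -0.897 for *Rbm14*, 0.408 and 0.423 for *Pspc1* and 0.061 and -0.0774 for *Sfpq*.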

How the data were processed

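RNA of 9 ex vivo brain samples was sequenced by the authors. The Methods, which name another data series, describe stranded libraries of short reads. According to the submitters' processing notes the reads were mapped to mm10 with TopHat and counted with HTSeq 0.6.1; the Methods also name featureCounts. What the authors deposited are raw counts, whole reads per gene without normalization, and no count column was left out. The annotation, use of strand, poly(A) selection and treatment of reads shared between genes are not given in the sources used here. The study calls its ex vivo replicates biological but counts 2 a group; the labels do not say whether the 3 libraries of each group came from separate animals, so p-values measure the spread between these samples. In the table, 27 names look like dates and 2 names have more than 1 row.

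The analysis used R 4.3.3 and edgeR 4.0.16, with filterByExpr and TMM on the 2 groups compared and the two-sided quasi-likelihood test. P-values were adjusted by Benjamini-Hochberg across all tested genes, with a threshold of 0.05. An SE was obtained from a log2 fold change and its F statistic. The lowest count of the 6 genes was 423; counting error is about as large as the spread between libraries for *Pspc1* and *Nono* in those labelled astrocytes. A level of 3 counts or fewer is the detection limit. Alternatives were DESeq2 1.42.0, limma 3.58.1 (limma-trend), other scalings and filters, all 9 libraries in one fit, each library left out, a replicate block and 2 libraries per group. Members and gene lists were chosen with earlier results of these data known; of each list at most 4 genes past the threshold with the largest log2 fold change, and for likeness the first 5, were named by rule, and other list genes named (*Hnrnpk*, *Son*, *Mettl16*, *Hif1a*, *Epas1*, *Tug1* and the neighbour beside the pair) were chosen after their values were seen. Lengths matched 23309 rows by symbol, and all listed genes were found, some by a RefSeq synonym. Values of some genes are not reported here.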

Additional observations from a re-analysis of the deposited data

How the results depend on the processing

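No gene past the threshold reversed direction among the 6; *Sfpq*, which was not past it after BAL101553, was at -0.06 without BAL101553 library 2 and at 0.00 without control library 2. Of the 3 counts of genes past the threshold, that of BAL101553 against control moved: from 1860 of 12633 genes to 2832 with DESeq2, to 3022 with all 9 libraries in one model, to between 193 (without control library 3) and 1712 (without BAL101553 library 2) with 1 library left out (458 without control library 1, 668 without BAL101553 library 3 and 1133 without BAL101553 library 1), and to 1 with 2 libraries per group, where 2673 genes had an unadjusted p under 0.05. The counts for the libraries labelled astrocytes did not move beyond 1.5 times. Scaling by total counts raised the share of higher genes among those past the threshold from 58.7% to 77.4% after BAL101553 and the median of all genes from 0.016 to 0.10; the cause was not tested. Same-numbered libraries deviated together little (r = 0.102, 0.00547 and 0.112 between control and BAL101553), while libraries of unlike number had r from -0.147 to 0.0528. The main fits did not take the numbers as pairs, and these values do not settle whether they are. With the replicate number as a block, 1371, 12815 and 13357 genes passed in place of 1860, 13039 and 13430. *Malat1* and *Neat1* then differed by 2.27 (SE 0.14) and 1.44 (SE 0.10) after BAL101553.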
